A study of Homo sapiens with 8 samples.

Results

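The replication-dependent histone genes were followed through 4 groups of cultured cells labelled as myeloma lines. A probe set, the set of short probes on an array that together read 1 transcript, was taken as a member where its platform gene symbol, or any of several symbols it carries, was an H1-1 to H1-6, H2AC, H2BC, H3C or H4C symbol or the older form of one. This gave 71 of the 54613 probe sets that are not array controls, of which 51 carried 1 symbol and 20 carried several. The symbols name 64 genes, pseudogenes such as H2AC5P and H4C10P included. By histone type, 7 members read linker histone H1, 16 read H2A, 20 read H2B, 10 read H3 and 16 read H4, and 2 carried both H3 and H2A symbols. The samples were OPM1 cells treated with Zalypsis, a DNA-binding compound of marine origin, untreated OPM1 control cells, MM1S cells treated with Zalypsis, and untreated MM1S control cells. Each group had 2 arrays, the dose was 5 nM, and treated cells were collected when 15 to 20% were dying. OPM1 and MM1S are established lines from multiple myeloma, a cancer of plasma cells. The arrays labelled OPM1 lacked SDC1, a defining plasma cell marker, and, in the controls, carried markers of earlier B cells. The identity of those cells is therefore in doubt, and OPM1 stands throughout for the label. The labels do not say whether both arrays of a group had cultures of their own, and p-values therefore cover only how far these arrays scatter, which may be technical.

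Histones H2A, H2B, H3 and H4 form the core around which DNA is wound, and H1 binds the linker between cores. The genes of this family lie in clusters, are transcribed mainly while DNA is replicated, and give messenger RNAs that end in a stem-loop instead of a poly-A tail. The protein SLBP binds that stem-loop, and NPAT, which acts downstream of cyclin E and CDK2, activates the genes. Some of these genes are known to give polyadenylated messages as well, for example in cells that have stopped dividing. Labelling here started from a poly-T primer, per the series' design text, so a value reads whatever form of the message that primer reached. The forms were not told apart by these arrays, and fewer cells of a kind and less RNA per cell cannot be told apart in such bulk samples.

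Promoters of 6 genes on which the results turn show the letters that recur upstream of the family. Each run is the stretch of 250 bases before an annotated start site, from RefSeq on GRCh38.p14, written along the gene's own strand. Capitals mark matches on either strand to the octamer ATTTGCAT, to CCAAT, to TATAAA and to AAACACA, the AC box of H1 genes, and neighbouring or overlapping matches run together.
H2AC18 promoter, chr1:149842751-149843000, strand -: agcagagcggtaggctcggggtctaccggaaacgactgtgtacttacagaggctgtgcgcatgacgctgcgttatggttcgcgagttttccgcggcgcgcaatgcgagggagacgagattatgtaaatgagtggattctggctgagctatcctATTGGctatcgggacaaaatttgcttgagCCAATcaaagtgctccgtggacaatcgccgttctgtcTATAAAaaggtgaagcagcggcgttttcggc
H2AC6 promoter, chr6:26123922-26124171, strand +: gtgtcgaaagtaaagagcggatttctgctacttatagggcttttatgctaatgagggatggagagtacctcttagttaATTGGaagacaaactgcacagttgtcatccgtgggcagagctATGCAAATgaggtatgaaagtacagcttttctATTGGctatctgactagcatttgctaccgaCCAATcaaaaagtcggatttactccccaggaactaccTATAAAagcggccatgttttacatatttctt
H2BC21 promoter, chr1:149886683-149886932, strand -: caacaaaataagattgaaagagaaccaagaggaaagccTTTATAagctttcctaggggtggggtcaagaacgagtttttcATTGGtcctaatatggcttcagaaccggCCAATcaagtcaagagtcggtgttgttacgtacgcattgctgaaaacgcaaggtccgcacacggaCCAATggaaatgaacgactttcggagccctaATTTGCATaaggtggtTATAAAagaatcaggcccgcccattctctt
H2BC5 promoter, chr6:26157871-26158120, strand +: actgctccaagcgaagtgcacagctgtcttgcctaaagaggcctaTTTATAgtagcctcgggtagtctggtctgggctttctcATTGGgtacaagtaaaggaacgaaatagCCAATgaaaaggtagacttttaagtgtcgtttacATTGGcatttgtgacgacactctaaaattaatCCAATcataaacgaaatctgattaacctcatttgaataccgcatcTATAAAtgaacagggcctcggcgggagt
H2BC12 promoter, chr6:27146859-27147108, strand -: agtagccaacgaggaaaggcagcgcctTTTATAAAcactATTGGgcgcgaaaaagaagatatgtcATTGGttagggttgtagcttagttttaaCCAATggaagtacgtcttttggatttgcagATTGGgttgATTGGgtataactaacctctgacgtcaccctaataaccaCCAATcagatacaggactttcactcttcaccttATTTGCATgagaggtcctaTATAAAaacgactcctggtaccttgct
H1-2 promoter, chr6:26056471-26056720, strand -: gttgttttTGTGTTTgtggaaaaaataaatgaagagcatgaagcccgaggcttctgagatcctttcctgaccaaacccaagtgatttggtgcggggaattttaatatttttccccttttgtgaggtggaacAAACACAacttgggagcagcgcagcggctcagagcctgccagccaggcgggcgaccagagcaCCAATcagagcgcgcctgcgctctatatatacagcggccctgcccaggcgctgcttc
In H2BC21 and in H2BC12 the octamer began 46 bases before the start, next to a TATAAA that began 30 bases before it in H2BC21 and 27 bases before it in H2BC12. H2AC6 held the octamer on the other strand, 130 to 123 bases before the start, while the H2BC5 and H2AC18 windows held no exact octamer. The H2AC18 window shared an unbroken run of 249 bases with that of H2AC19, its near copy.

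Promoter windows were found for 56 of the 64 genes, 60 windows in all. An exact octamer stood in 14 of 18 H2B windows and 8 of 13 H2A windows, in 1 of 10 H3 windows, in 0 of 6 H1 windows and in 0 of 13 H4 windows. Over all 35116 promoters in the table the share with an octamer was 1.63%. CCAAT was found in every H1, H2A, H2B and H3 window and in 3 of 13 H4 windows, against 11240 of all promoters. TATAAA was found in 39 of the 60 windows, against 10.7% of all promoters, and AAACACA in all 6 H1 windows, against 4.82%. Paired H2A and H2B genes that point away from each other share parts of their windows, and some genes have more than 1 window, so the windows are not independent. A match describes the letters only.

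Measures of the whole arrays moved with the groups. The 2 arrays within a group had correlations of 0.988 to 0.993 (Pearson, log2 scale, over probe sets) and other pairs at 0.802 to 0.963. The poly-A controls, transcripts added before labelling, had a geometric mean signal of 1862 and 1349 in OPM1 Zalypsis, against 299.7 and 448 in OPM1 control, and of 19.7 to 25.7 over the 4 MM1S arrays. The median signal of those MM1S arrays was 23.8 to 24.8, so scaling them to these controls rests on levels near background. A 28S ribosomal RNA probe set read 11465 and 9325 in OPM1 Zalypsis and at most 1328 elsewhere, and the upper quartile of the signal was 77.5 and 78.7 there, against 101 to 115 elsewhere. OPM1 control 1 had a 3' to 5' ratio of 2.26 for GAPDH and 5.80 for ACTB, against at most 1.06 and 2.62 on the other 7 arrays. The marker SDC1, which defines plasma cells, read 14.0 and 9.81 in OPM1 Zalypsis and 6.56 and 12.9 in OPM1 control, against 2370 to 3443 in MM1S. The summed signal of 8 plasma cell markers was 3843 to 5309 in OPM1 and 23867 to 33792 in MM1S, while 5 markers of earlier B cells summed to 1189 and 1125 in OPM1 Zalypsis, 6991 and 8476 in OPM1 control and 191 to 256 in MM1S. By the test described below, 7 of the 8 plasma cell markers were lower and 1 higher in OPM1 control than in MM1S control. Of all probe sets tested, 28.6% were lower and 24.6% higher. Summed markers of T cells, myeloid, epithelial and fibroblast cells stayed at or under 166 on every array, CD14 of the myeloid list reading 123 and 74.4 in OPM1 Zalypsis, against 5.82 and 4.89 in OPM1 control. The part of these measures in the results that follow was not tested.

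Most histone probe sets had a higher signal in OPM1 cells treated with Zalypsis. Without any filter on low values, 45 of the 71 members were called higher and 1 lower in OPM1 Zalypsis than in OPM1 control, where 13.2% of all probe sets were called higher and 19.4% lower. A call is an adjusted p under 0.05 from limma, fitted across the whole table on log2(signal + 32), a scale that understates the change of dim genes. Both treated arrays lay above both control arrays for 53 of the 71 members and below them for 2, against 29.1% and 31.0% of all probe sets. The fit behind the fold changes left out the dimmest 40% of probe sets, those averaging under 18.3, and kept 53 members. Of those, 41 were called higher, 1 lower and 11 neither, against a background of 22.0% higher and 32.1% lower. In all, 10 of the 53 passed the filter only through their signal in OPM1 Zalypsis, so the unfiltered count is the one to read. The median log2 fold change was 0.64 over all 71 members without the filter and 1.03 over the 53 past it, against 0.0035 and -0.03 over all probe sets. The size of the OPM1 result, and the direction of some members named here, depends on the scaling, as given further on.

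**Figure D1:**
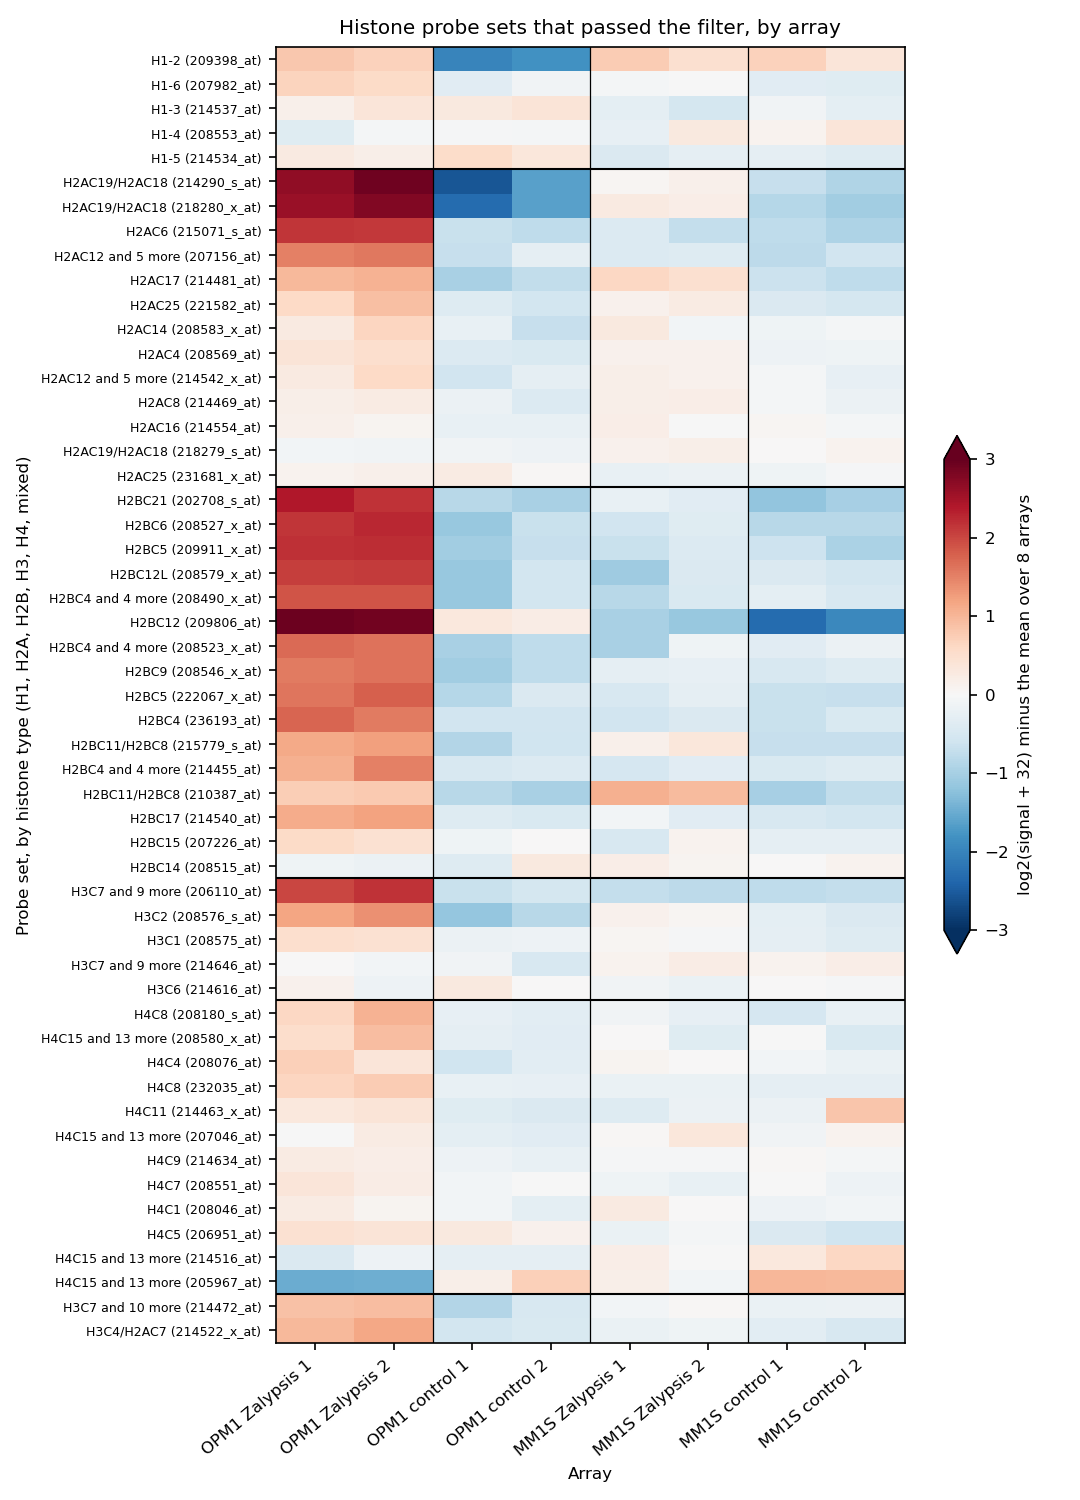
Heat map of the 53 histone probe sets that passed the filter (rows, by histone type and then by the change in OPM1) on the 8 arrays (columns), as log2(signal + 32) minus the row's mean. Most H2A and H2B rows are highest on the 2 OPM1 Zalypsis arrays, 205967_at of H4 is lowest there, and H1-2 is lowest on the 2 OPM1 control arrays.

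Among H2A members, 13 of 16 were called higher in OPM1 and 0 lower without the filter, and 11 of the 13 past it. The largest rise of any member belonged to H2AC18 and H2AC19, the near-identical chromosome 1 genes whose promoter is shown above and which share their probe sets, so that the copies cannot be told apart. Probe set 214290_s_at read 2772 and 3315 in OPM1 Zalypsis, against 43.2 and 112 in OPM1 control. A second probe set of these genes, 218280_x_at, read 1705 and 1955 in OPM1 Zalypsis, against 26.5 and 61.6 in OPM1 control. Both controls lay far below both treated arrays, and relative to their level the control arrays differed from each other by more than the treated ones. The log2 fold changes were 4.88 ± 0.24 and 4.65 ± 0.19 (SE, n = 2 arrays each; adjusted p = 1.6e-09 and 5.5e-10, limma). Another probe set with the same symbols, 218279_s_at, stayed near background at 28.9 and 27.3 in OPM1 Zalypsis, against 27.3 and 26.0 in OPM1 control.

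H2AC6, whose promoter carries the reversed octamer, read 357 and 350.9 in OPM1 Zalypsis, against 23.4 and 19.7 in OPM1 control. Its treated arrays were alike and stood well apart from the controls, with a log2 fold change of 2.85 ± 0.13 (SE; adjusted p = 1.3e-09). H2AC17 read 116 and 123 in OPM1 Zalypsis, against 5.79 and 12.7 in OPM1 control, a log2 fold change of 1.88 ± 0.13. H2AC25, a single H2A gene of chromosome 1, read 127.9 and 166 in OPM1 Zalypsis, against 48.9 and 39.5 in OPM1 control. Its log2 fold change was 1.22 ± 0.14 (SE; adjusted p = 3.8e-06), but its second probe set, 231681_x_at, gave -0.02 and was not called, and poly-A scaling turned the first to -0.28. The other called H2A probe sets changed by 0.35 to 2.03 on the log2 scale. The largest of these was 207156_at, which passed the filter only through OPM1 Zalypsis.

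Of the 20 H2B members, 16 were called higher in OPM1 and 0 lower without the filter. Their median log2 fold change was 2.07, against 0.86 for H2A, 0.20 for H3, 0.37 for H4 and 0.11 for H1. These medians follow brightness in part, as the scale understates dim members, and the types were not tested against each other. Past the filter 15 of 16 were called higher, of which 3 (214455_at, H2BC17 and H2BC4) passed it only through OPM1 Zalypsis. H2BC21, which is known to give a polyadenylated message too, read 770 and 646 in OPM1 Zalypsis, against 53.5 and 44.97 in OPM1 control. The groups did not overlap, and the log2 fold change was 3.18 ± 0.14 (SE; adjusted p = 8.5e-10). H2BC12 was the brightest H2B member, with 4227 and 4109 in OPM1 Zalypsis, against 658 and 615 in OPM1 control (log2 fold change 2.65 ± 0.15, SE; adjusted p = 7.9e-09). Unlike most members it was already bright in untreated OPM1.

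H2BC6 read 907 and 983 in OPM1 Zalypsis, against 64.5 and 102 in OPM1 control, a log2 fold change of 3.10 ± 0.16. For H2BC5 the values were 847 and 866 in OPM1 Zalypsis and 61.4 and 88.6 in OPM1 control, a log2 fold change of 3.07 ± 0.16. H2BC12L, which lies apart on chromosome 21, read 1140.1 and 1175 in OPM1 Zalypsis, against 96.0 and 159 in OPM1 control (2.93 ± 0.21 on the log2 scale). These members had treated arrays that differed little from each other and a first control array below the second. Probe sets 208490_x_at and 208523_x_at, which share 5 H2B symbols, rose by 2.72 ± 0.19 and 2.53 ± 0.21 on the log2 scale, and cross-matching of such probes between the near-identical H2B genes cannot be told apart from separate rises. The 1 H2B member past the filter that was not called was H2BC14, with 67.7 and 65.4 in OPM1 Zalypsis, against 52.1 and 102 in OPM1 control.

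**Figure D2:**
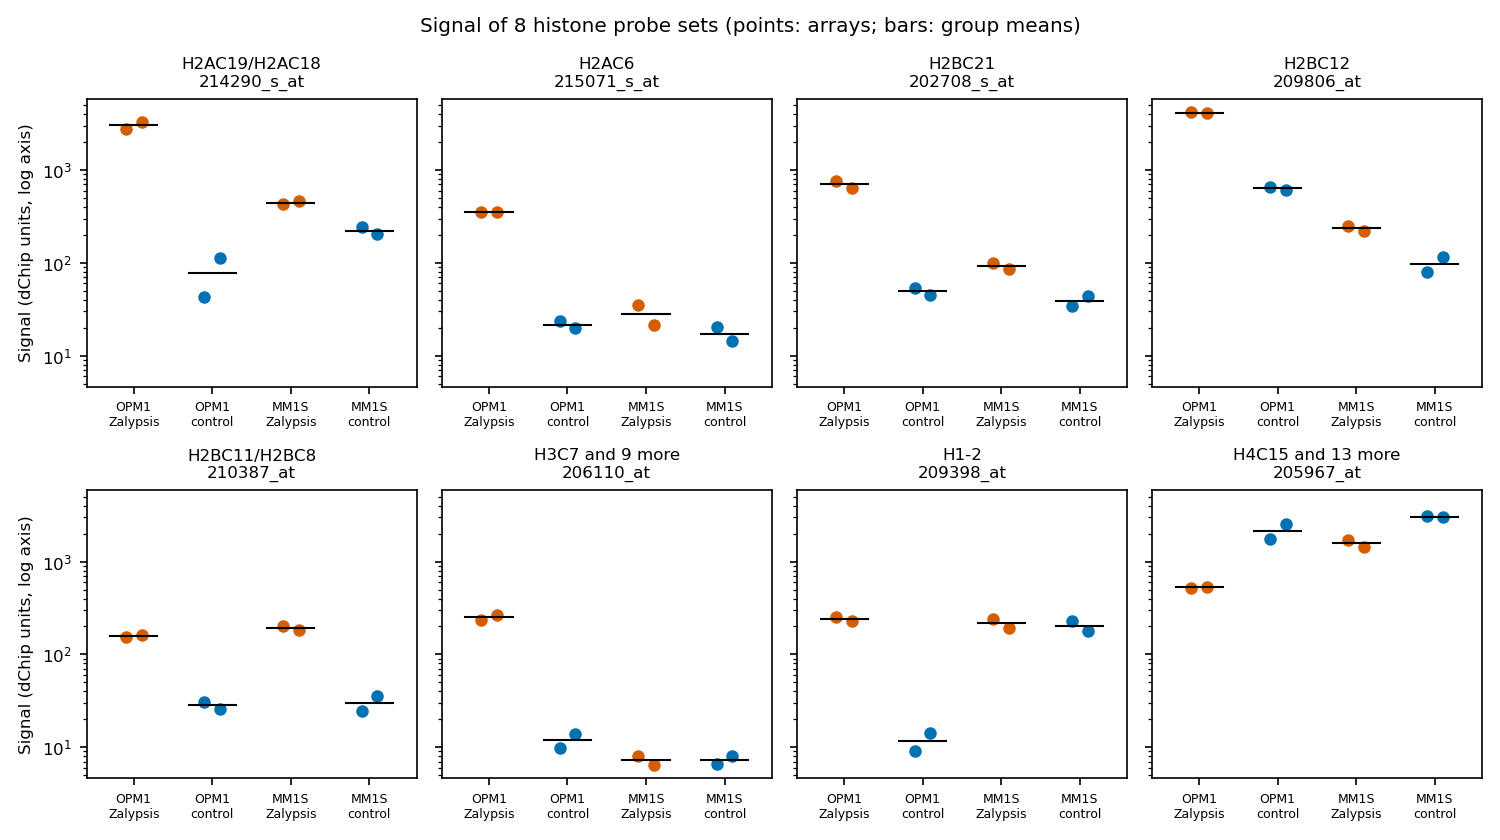
Signal of 8 histone probe sets on a log axis in dChip units, with 1 point per array and a bar at each group's mean (n = 2). H2AC18/H2AC19, H2AC6, H2BC21, H2BC12 and the H3 probe set 206110_at stand highest in OPM1 Zalypsis, 210387_at is raised by Zalypsis in both lines, H1-2 is low only in OPM1 control, and 205967_at is lowest in OPM1 Zalypsis.

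For H3, the core histone whose tail carries many regulatory marks, 3 of 10 members were called higher in OPM1 and 0 lower without the filter. The same number was called among the 5 past the filter, where 206110_at and H3C1 had passed only through OPM1 Zalypsis. Probe set 206110_at carries the symbols of 10 H3 genes, and the accession it was designed on belongs to H3C10. It read 233 and 267 in OPM1 Zalypsis, against 9.88 and 13.7 in OPM1 control. These treated values stood far above a control level near background (log2 fold change 2.68 ± 0.12, SE; adjusted p = 1.1e-09). H3C2 read 201 and 233 in OPM1 Zalypsis, against 13.5 and 25.03 in OPM1 control (2.29 ± 0.14 on the log2 scale). H3C1 was called at 0.64. The probe sets 214472_at and 214522_x_at, which mix H3 and H2A symbols, rose by 1.59 and 1.58, the second having passed the filter only through OPM1 Zalypsis.

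H4 was the type in which members moved in opposite directions. Of 16 H4 members without the filter, and of the 12 past it, 8 were called higher in OPM1 and 1 lower. The rises were 0.33 to 1.11 on the log2 scale used, which understates dim members such as these. As ratios of group mean signals they were 1.52 to 4.67. Of the 8 members that rose, 3 passed the filter only through OPM1 Zalypsis. The member that fell, 205967_at, is the brightest H4 probe set, carries 14 H4 symbols and was designed on an accession of H4C3. It read 524 and 532 in OPM1 Zalypsis, against 1736 and 2511 in OPM1 control (log2 fold change -1.92 ± 0.16, SE; adjusted p = 2.8e-07). Both treated arrays lay far below both controls, the reverse of the H2A and H2B pattern. Of 4 dimmer probe sets with the same 14 symbols, 2 were called in the other direction, both of which passed the filter only through OPM1 Zalypsis. Of the other two, 214516_at, at -0.02, was not called and 208181_at lay below the filter. Probe set 208580_x_at read 48.5 and 74.1 in OPM1 Zalypsis, against 14.1 and 12.2 in OPM1 control (1.03 ± 0.18), a call that poly-A scaling ended at 0.0501. For 207046_at the values were 18.6 and 28.6 in OPM1 Zalypsis, against 9.28 and 8.29 in OPM1 control (0.44 ± 0.15, adjusted p = 0.0213). This last call was lost without either OPM1 control array, at 0.46 without the first and 0.42 without the second. H4C11, designed on an accession of H4C12, was called higher at 0.75 ± 0.23, but not without OPM1 Zalypsis 2, where it was 0.71 (adjusted p = 0.0673), and poly-A scaling turned it to -0.31.

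Among H1 members, 3 of 7 were called higher in OPM1 and 0 lower without the filter, and 2 of the 5 past it. H1-2, the brightest of them and one of the common linker histones of dividing cells, read 252 and 229 in OPM1 Zalypsis, against 9.17 and 14.1 in OPM1 control. Its treated arrays lay near the level of the MM1S arrays, 176 to 242, whereas the OPM1 controls were near background (log2 fold change 2.64 ± 0.15, SE; adjusted p = 7.9e-09). H1-6, the testis-type H1, was called at 0.84. H1-3, H1-4 and H1-5 were not called, with log2 fold changes of -0.08, -0.16 and -0.22, but poly-A scaling made H1-3 and H1-5 lower calls, at -1.29 and -1.68.

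The 18 members below the filter had values between 1 and 38.9 on every array. Both OPM1 Zalypsis arrays lay above both OPM1 control arrays for 8 of them and below for 0, where 29.1% and 31.0% of all probe sets did so. Both MM1S Zalypsis arrays lay above both MM1S control arrays for 6 and below for 4, shares near the 28.1% and 24.9% of all probe sets. At such signals no single member can be read.

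In MM1S most histone probe sets were not called, though the share called higher was above that of all probe sets. Of the 53 members tested, 10 were called higher and 1 lower in MM1S Zalypsis than in MM1S control, against a background of 12.5% higher and 16.9% lower, and the median log2 fold change was 0.18, against 0.03 over all probe sets tested. Without the filter 10 of 71 members were called higher and 1 lower, where 6.20% and 9.49% of all probe sets were, and the median was 0.11. Both treated arrays lay above both controls for 33 of the 71 members and below for 9, against 28.1% and 24.9% of all probe sets. With the arrays scaled to their hybridisation controls, 6 members were called higher and 3 lower, against 3.68% and 27.8% of all probe sets. The median of the members was then -0.03, so the direction of the family's median in MM1S turned with that scaling, under which the median of all probe sets moved to -0.21.

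The members that rose in MM1S were led by 210387_at, a probe set of H2BC11 and H2BC8. It read 204 and 184 in MM1S Zalypsis, against 24.3 and 35.9 in MM1S control (log2 fold change 1.87 ± 0.13, SE; adjusted p = 2.6e-07). Both treated arrays stood well above both controls, as in OPM1, where it read 155 and 164 with Zalypsis and 31.0 and 25.8 without. A second probe set of these genes, 215779_s_at, read 53.3 and 66.0 in MM1S Zalypsis, against 15.6 and 15.5 in MM1S control (0.94 ± 0.13 on the log2 scale).

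H2AC17 read 82.9 and 71.6 in MM1S Zalypsis, against 15.7 and 11.97 in MM1S control (1.25 ± 0.13, adjusted p = 7.0e-06). H2BC12 read 251 and 223 in MM1S Zalypsis, against 80.7 and 115 in MM1S control (1.06 ± 0.15, adjusted p = 1.6e-04). H2BC21 read 98.7 and 86.9 in MM1S Zalypsis, against 34.3 and 43.4 in MM1S control (0.82 ± 0.14, adjusted p = 5.7e-04). In these 3 members the groups were apart, at levels far below the treated OPM1 cells for H2BC12 and H2BC21. H2AC25 was called at 0.66 ± 0.14, and the H2AC18/H2AC19 probe set 218280_x_at, at 319 and 298 in MM1S Zalypsis and 127 and 109 in MM1S control, at 1.18 ± 0.19. Their other probe set, 214290_s_at, was called at 0.90 ± 0.24 (adjusted p = 0.0104), but not without MM1S Zalypsis 1, MM1S Zalypsis 2 or MM1S control 2, at 0.95, 0.85 and 0.80. The calls of H3C2 at 0.46 and of H4C5 at 0.38 were lost without any 1 of the 4 MM1S arrays, over ranges of 0.39 to 0.53 and of 0.30 to 0.46 when each was left out, and both also without the filter and under poly-A or hybridisation control scaling, H3C2 at 0.46, 0.32 and 0.21 and H4C5 at 0.38, 0.29 and 0.23. Poly-A scaling ended the MM1S calls of 214290_s_at at 0.70, of H2BC21 at 0.67 and of H2AC25 at 0.52, and hybridisation control scaling ended those of 214290_s_at at 0.56 and of H2AC25 at 0.41. The poly-A controls lay near background in MM1S, so calls lost or gained under poly-A scaling there cannot be weighed. H4C11 and 208523_x_at were not called, at -0.61 and -0.30, but 208523_x_at was called without MM1S Zalypsis 2, at -0.71. H4C11 was called lower without MM1S control 1, at -1.12, without either OPM1 control array, under poly-A scaling at -0.72 and under hybridisation control scaling at -0.81. With the replicate number as a block H4C11 was called too (adjusted p = 0.0122, limma), as was H2BC6, higher at 0.36 (adjusted p = 0.0388). Hybridisation control scaling also made 214516_at a lower call, at -0.56.

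The H4 probe set 205967_at fell in MM1S as well. It read 1723 and 1427 in MM1S Zalypsis, against 3063 and 3020 in MM1S control, which is -0.94 ± 0.16 on the log2 scale (adjusted p = 6.5e-04). Both treated arrays lay below both controls in each line. Of the 53 members past the filter, 9 were called higher in both lines, where 7.45% of all probe sets tested were, and 1 lower in both, where 13.4% were. Another 32 were higher in OPM1 and not called in MM1S, against 14.3% of all. The 10 members that passed the filter only through OPM1 Zalypsis were all among these 32, so this count leans on how they were kept. H4C5 alone was higher in MM1S and not called in OPM1, against 4.05%, although quantile normalization made it a call in OPM1 at 0.43 and poly-A scaling one at -1.10. The other 10 members were called in neither line, against 38.6%.

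**Figure D3:**
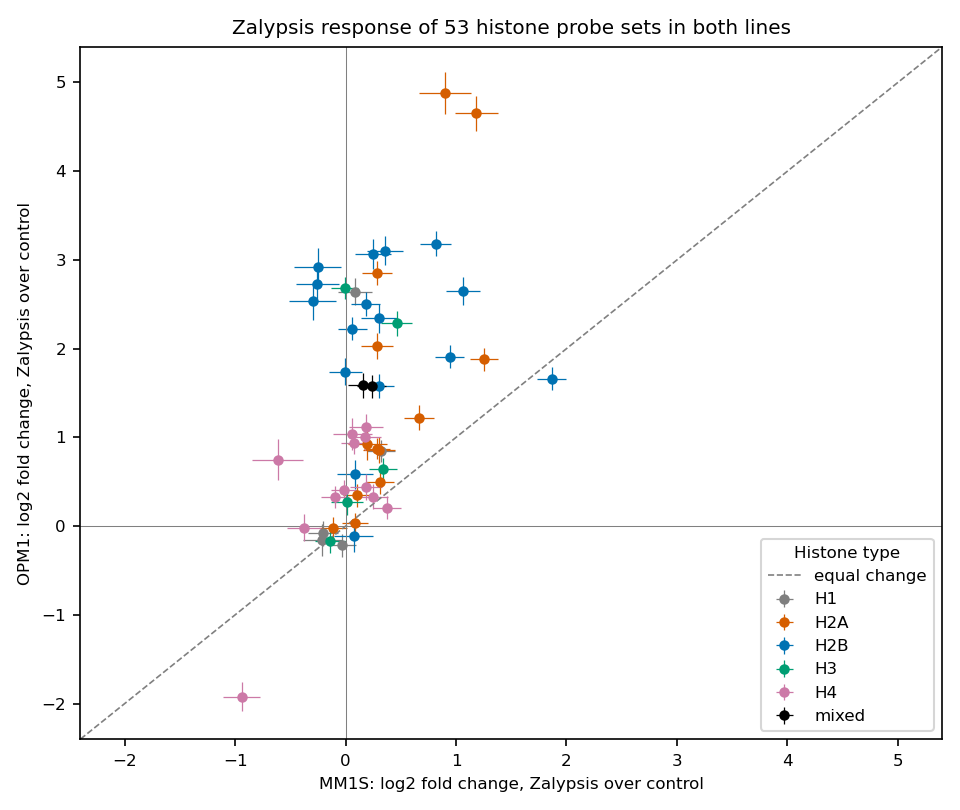
Log2 fold change of each of the 53 tested histone probe sets in OPM1 (vertical) against MM1S (horizontal), with standard errors and the line of equal change. H2A and H2B members reach 4.88 and 3.18 in OPM1, 210387_at lies at 1.66 in OPM1 and 1.87 in MM1S, and 205967_at is alone at the lower left.

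Without the filter, the response to Zalypsis was called larger in OPM1 than in MM1S for 31 of the 71 members. Past it, 10 of the 53 members had been kept only through their signal in OPM1 Zalypsis, so the unfiltered count is the one to read. The difference of the responses, OPM1 minus MM1S, was called above 0 for 32 of 53 members and below 0 for 1, against a background of 11.9% and 23.2%, and its median was 0.82, against -0.07 over all probe sets tested. Without the filter the counts were 31 above and 1 below of 71 members, where 6.45% and 12.7% of all probe sets were called, and the median was 0.52. By type and without the filter, the difference was called above 0 for 13 of 20 H2B members, 7 of 16 H2A members, 5 of 16 H4 members, 2 of 10 H3 members and 2 of 7 H1 members. The largest differences were 3.98 ± 0.33 for 214290_s_at and 3.47 ± 0.27 for 218280_x_at of H2AC18/H2AC19, 3.18 ± 0.30 for H2BC12L and 2.98 ± 0.27 for 208490_x_at (log2 scale, SE). For H1-2 the difference was 2.55 ± 0.22, and for 206110_at of H3 it was 2.69 ± 0.17. Probe sets 206110_at and 208580_x_at passed the filter only through OPM1 Zalypsis. The member called below 0 was 205967_at, at -0.98 ± 0.23 (adjusted p = 0.00485). This call was lost when the arrays were scaled to their hybridisation controls, at -0.71 (adjusted p = 0.0842). For 210387_at the difference was -0.21 ± 0.19 and not called (adjusted p = 0.439). The difference for 208580_x_at, 0.97, was not called without MM1S control 1, at 0.75 (adjusted p = 0.0539). Under poly-A scaling, which moved the median difference of all probe sets to -1.26, 15 of 47 members were called above 0 and 14 below, against 1.20% and 83.4% of all probe sets. There H2BC12 turned to -0.29, H2AC17 to -0.30, 215779_s_at to -0.11, H2AC25 to -0.79 and H1-3 to -0.996, and 210387_at, H4C5 and H1-5 became calls at -1.47, -1.40 and -1.54. Poly-A scaling also ended the calls of H3C2 at 0.64, of H4C11 at 0.41 and of 208580_x_at at 0.0724. The MM1S part of these scaled differences rests on poly-A controls near background.

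Smaller differences depended on single arrays. For H2AC17, at 0.63, the call was lost without OPM1 control 1, MM1S Zalypsis 2 or MM1S control 1, at 0.51, 0.55 and 0.57. For H2AC25, at 0.56, it was lost in 6 of the 8 fits that left out 1 array, over a range of 0.41 to 0.72, and held without OPM1 Zalypsis 1 and without OPM1 control 1. It was also lost with a pseudocount of 8, at 0.67, and without the filter, at 0.56.

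Poly-A scaling was the only choice tried that turned named results in OPM1. When each OPM1 array was divided by its poly-A control level, which was higher with Zalypsis, the median log2 fold change over all probe sets tested moved to -1.33, and 0.687% were called higher and 91.2% lower. Under that scaling 18 of 47 tested members were called higher in OPM1 and 14 lower, with a median of -0.04, which is 1.29 above the median of all probe sets. As deposited, the same distance was 1.06, and after quantile normalization it was 1.23. After that normalization 43 of 52 members were called higher and 1 lower, against 32.9% and 27.5% of all probe sets. Dividing an array by 1 factor moves members and all other probe sets the same way, on this scale bright ones further than dim ones. H2BC12 went from 2.65 to 0.59, and H4C11 from 0.75 to -0.31. The distance therefore depends on brightness and on which members passed the filter, and it is no separate test of the rise. The distances use medians past the filter. Without the filter, as deposited, the medians were 0.64 for members and 0.0035 for all probe sets. The 18 members called higher under poly-A scaling were all among the 41 called as deposited, which was nearly given in advance, as that scaling lowered the treated OPM1 values. H2AC18/H2AC19 still rose, by 3.07 and 2.97, H2BC21 by 1.46, 206110_at by 1.44, H1-2 by 1.41, H2AC6 by 1.39, H2BC6 by 1.28 and H2BC5 by 1.26, whereas H2BC12, at 0.59 (adjusted p = 0.0717), and 210387_at, at 0.25 (adjusted p = 0.319), were not called. H4 had 0 called higher and 5 lower of 10 under that scaling. Which scaling gives the true level was not tested.

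**Figure D4:**
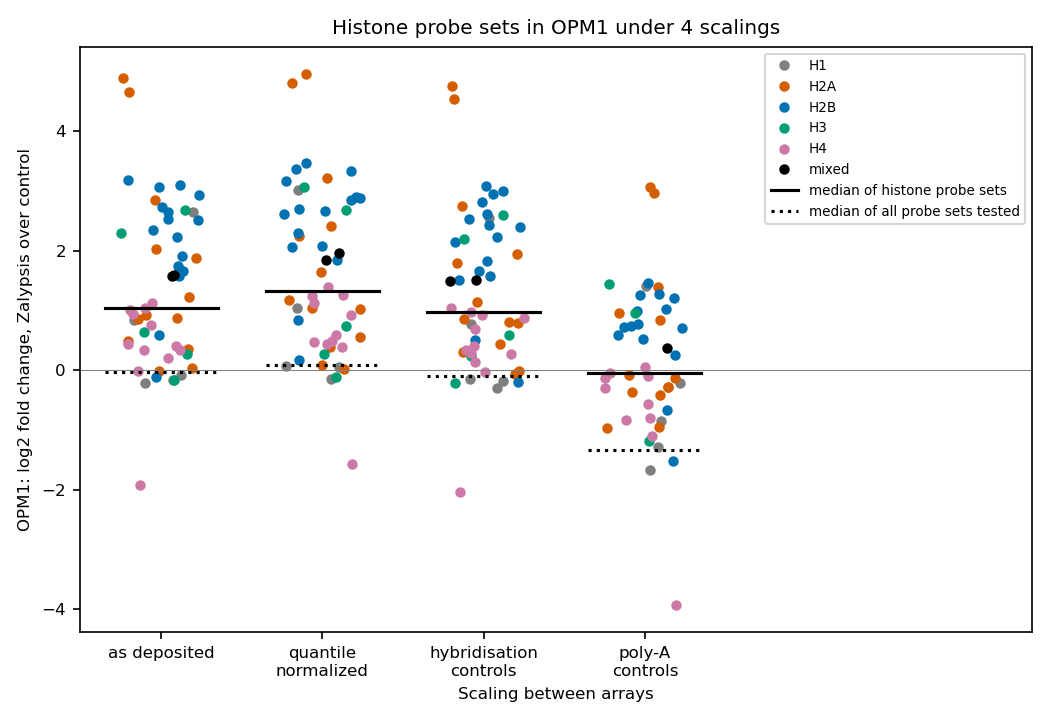
Log2 fold change of histone probe sets in OPM1 (Zalypsis over control, 1 point each) under 4 scalings of the arrays, with the median of the histone probe sets (solid) and of all probe sets tested (dotted). Under poly-A scaling both medians are lower, at -0.04 and -1.33. The solid line lies above the dotted one under each scaling. Scaling whole arrays to controls moves all probe sets the same way, bright ones further than dim ones, so this distance is no separate test.

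In untreated cells the lines differed mostly in single members. Of 53 tested, 4 were called higher and 11 lower in OPM1 control than in MM1S control, against 24.6% and 28.6% of all probe sets tested, and the median was -0.08, against -0.02. Without the filter 4 of 71 were called higher and 10 lower, where 15.0% and 17.2% of all probe sets were. The number of calls depended on single arrays, and the median was -0.06 without MM1S control 2 and -0.14 without OPM1 control 2. H2BC12 was higher in OPM1, at 658 and 615 in OPM1 control, against 80.7 and 115 in MM1S control (log2 fold change 2.38 ± 0.15, SE; adjusted p = 2.3e-08). H1-5, H4C5 and H1-3 were the other members called higher, at 0.77, 0.72 and 0.54, the last not without MM1S control 2, at 0.44. H1-2 was lower in OPM1, at 9.17 and 14.1 in OPM1 control, against 230.3 and 176 in MM1S control (-2.42 ± 0.15, adjusted p = 1.8e-08). The H2AC18/H2AC19 probe sets were lower too, at -1.29 for 214290_s_at and -1.02 for 218280_x_at. The first of these read 43.2 and 112 in OPM1 control, against 242 and 204 in MM1S control.

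The remaining lower calls were smaller. H3C2 was at -0.64, 214516_at, a dim H4 probe set with 14 symbols, at -0.74, 214472_at, with H3 and H2A symbols, at -0.50, H2BC9 at -0.47 and 214646_at of H3 at -0.45. H4C11 was called at -0.74, but MM1S control 2 read 88.3 and MM1S control 1 read 27.9, and without MM1S control 2 the value was -0.24 (adjusted p = 0.264). For 205967_at, at -0.54, the call was lost without OPM1 control 1 at -0.27, without MM1S control 1 at -0.53 and without MM1S control 2 at -0.55. The call of 208523_x_at, at -0.62, was lost without the same 3 arrays, over a range of -0.73 to -0.50 when each array was left out, and without the filter and after quantile normalization, at -0.62 and -0.49. Its companion 208490_x_at, not called at -0.46, was called without OPM1 control 2 at -0.76, under hybridisation control scaling at -0.65 and with the replicate block. H2BC12L was called without OPM1 control 2 at -0.63, and 207046_at under hybridisation control scaling at -0.40.

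Factors that switch histone genes on or shape their message ends did not move in 1 direction. Of 39 genes tested in a list of histone gene activators, S-phase kinase partners and 3' end processing factors, each read by its brightest probe set with 1 symbol, 9 were called higher and 17 lower in OPM1, against 22.4% and 33.6% of all genes so read. Their median log2 fold change was -0.24. In MM1S, 7 were called higher and 7 lower, against 12.6% and 17.9%. SLBP, the stem-loop binding protein, read 2249 and 2229 in OPM1 Zalypsis, against 2470.1 and 2821 in OPM1 control. That was -0.23 ± 0.12 and not called (adjusted p = 0.123), although it was called without OPM1 control 1, at -0.33 (adjusted p = 0.0462), with the replicate number as a block, and under poly-A scaling at -2.32. In MM1S its log2 fold change was 0.24, also not called except after quantile normalization, at 0.27.

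NPAT, the activator of these genes, read 52.5 and 69.4 in OPM1 Zalypsis, against 142 and 158 in OPM1 control (-0.98 ± 0.14, adjusted p = 3.2e-05). In MM1S it was called at -0.43, and that call was lost without any 1 of the 4 MM1S arrays, over a range of -0.46 to -0.41, after quantile normalization at -0.29 and under poly-A scaling at -0.62. CASP8AP2, which works with NPAT, was called lower in OPM1 at -0.56 and higher in MM1S at 0.57. The OPM1 call was lost after quantile normalization at -0.17, without OPM1 Zalypsis 1 at -0.42 and without OPM1 control 1 at -0.43. The MM1S call was lost under poly-A scaling at 0.36, under hybridisation control scaling at 0.21, and without MM1S Zalypsis 1, MM1S Zalypsis 2 or MM1S control 1, at 0.52, 0.61 and 0.49. POU2AF1, the B-cell coactivator that binds octamer factors, read 304 and 267 in OPM1 Zalypsis, against 2638 and 2724 in OPM1 control. This was a fall of 3.10 on the log2 scale. In MM1S it fell by 0.68, with 3148 and 2794 in MM1S Zalypsis, against 4806 and 4714 in MM1S control.

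Among genes for poly-A tailing and 3' end cutting, PAPOLA, the main poly-A polymerase, had a log2 fold change of -2.03 in OPM1, CPSF3, the nuclease that cuts histone and other messages, of -1.603, and TUT4, which adds uridines to messages, of -1.48. PABPN1, a nuclear poly-A binding protein, was called higher in OPM1 at 1.80, SRRT at 1.09, CPSF6 at 1.05 and CSTF2 at 0.74. Under poly-A scaling these 4 turned to -0.13, -1.005, -1.01 and -1.15, and 38 of the 39 genes were called lower, where 91.2% of all probe sets were. In MM1S the largest rises in the list were those of the S-phase genes CCNE2, a cyclin E, at 1.29 and CDK2, its kinase, at 0.90. CCNE2 read 429 and 354 in MM1S Zalypsis, against 127 and 155 in MM1S control. CPSF6 and LSM11, a subunit of the histone 3' end particle, followed at 0.79 and 0.75. Poly-A scaling ended the calls of CDK2, CPSF6 and LSM11 in MM1S, at 0.69, 0.57 and 0.56, but not that of CCNE2, and hybridisation control scaling ended those of CPSF6 and LSM11, at 0.41 and 0.42. TUT4 was called at -1.001 in MM1S, and CPSF3 and TUT7 were each called at -0.54. The calls of CPSF3 and TUT7 were lost without MM1S Zalypsis 1, MM1S Zalypsis 2 or MM1S control 1, over ranges of -0.59 to -0.49 and of -0.61 to -0.47 when each array was left out, and under poly-A scaling, at -0.76 and -0.74.

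**Figure D5:**
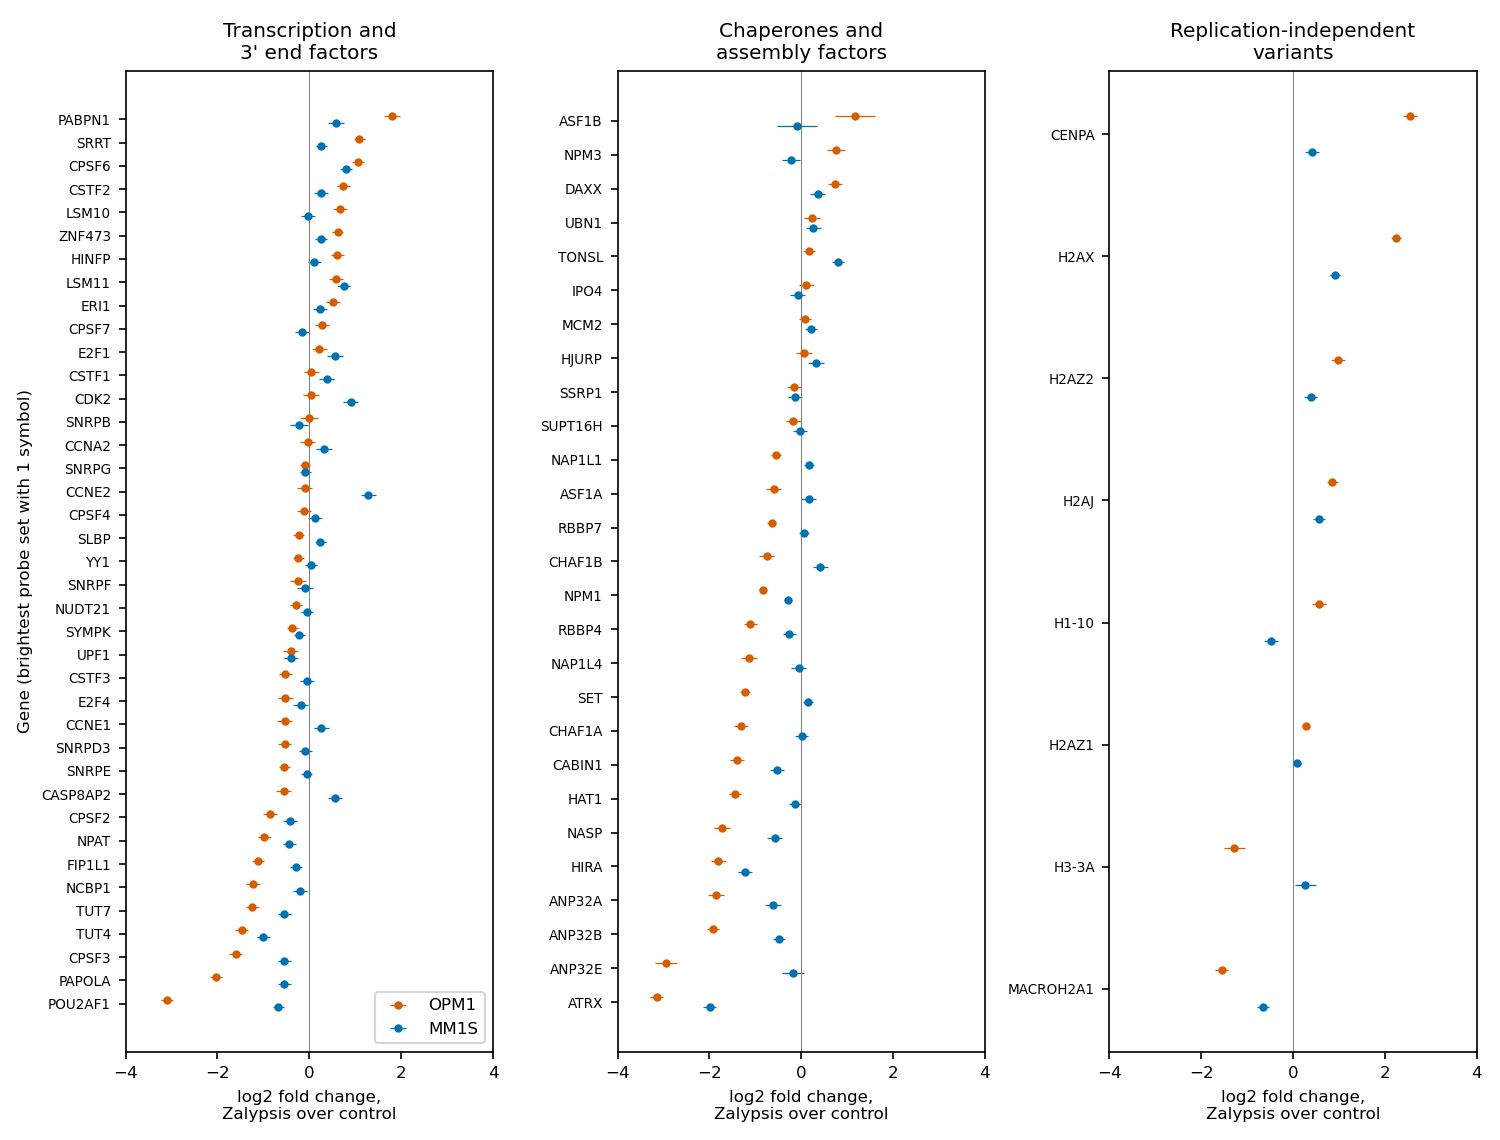
Log2 fold changes with standard errors in OPM1 and MM1S (Zalypsis over control) for the tested genes of 3 lists, ordered by the change in OPM1. ATRX at -3.14 and POU2AF1 at -3.10 are lowest in OPM1, and CENPA at 2.55 and H2AX at 2.24 highest.

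Genes of histone chaperones and chromatin assembly, whose products carry new histones to DNA, were mostly lower in treated OPM1. Of 27 tested, 3 were called higher and 17 lower, against the same 22.4% and 33.6%, with a median log2 fold change of -0.75. In MM1S, 1 was called higher and 7 lower, against 12.6% and 17.9% of all genes so read. ATRX, which places the variant H3.3 with DAXX, read 17.7 and 13.7 in OPM1 Zalypsis, against 436 and 347 in OPM1 control (-3.14 ± 0.14, adjusted p = 9.2e-10). It was lower in MM1S too, with 73.1 and 76.3 in MM1S Zalypsis, against 404 and 380 in MM1S control (-1.99 ± 0.14). ANP32E, an H2A.Z chaperone, fell by 2.95 in OPM1, ANP32B by 1.92 and ANP32A by 1.85. DAXX was called higher at 0.74, NPM3 at 0.76 and ASF1B, which hands H3 and H4 to assembly factors, at 1.16. The ASF1B call was lost without the filter and with the larger pseudocount, at 0.96. It was also lost in 6 of the 8 fits that left out 1 array, over a range of 1.04 to 1.28. For ASF1B, MM1S control 1 read 2895 and MM1S control 2 read 648, and the part of this spread in the lost calls was not tested. NPM3 was not called without OPM1 control 1, at 0.46. Under poly-A scaling, where 91.2% of all probe sets were called lower, all 27 genes were called lower in OPM1, with ASF1B at -0.81, NPM3 at -1.27 and DAXX at -1.25. In MM1S, TONSL, a reader of newly placed H4, was called at 0.81 but not under poly-A scaling, at 0.63, HIRA, a chaperone of H3.3, at -1.22, and ANP32A and NASP, a carrier of H3 and H4, at -0.61 and -0.58. The last 2 calls were lost without MM1S Zalypsis 1, MM1S Zalypsis 2 or MM1S control 1, over ranges of -0.77 to -0.45 and of -0.75 to -0.40 when each array was left out, and under poly-A scaling, at -0.83 and -0.80.

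Histone variants, whose messages have poly-A tails and are made throughout the cell cycle or at special times, rose in part as well. Of 8 tested variant genes, 6 were called higher and 2 lower in OPM1, against the same 22.4% and 33.6% of all genes so read. CENPA, the H3 variant of centromeres, read 734 and 719 in OPM1 Zalypsis, against 85.9 and 111 in OPM1 control (2.55 ± 0.14). H2AX, the variant phosphorylated at DNA breaks, read 5481 and 5292 in OPM1 Zalypsis, against 1122 and 1113 in OPM1 control (2.24 ± 0.11, adjusted p = 1.3e-09). Its message is known to occur with either a stem-loop or a poly-A tail. H2AZ2 and H2AJ were called at 0.98 and 0.86, while MACROH2A1 and H3-3A fell by 1.56 and 1.28. Under poly-A scaling CENPA was still called, at 0.70, and H2AX was not called, at 0.15, while H2AZ2 and H2AJ turned to -1.08 and -0.17.

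In MM1S, 3 of the 8 variant genes were called higher and 2 lower, against 12.6% and 17.9%. H2AX read 4763 and 4853 in MM1S Zalypsis, against 2618 and 2453 in MM1S control (0.92 ± 0.11, adjusted p = 2.0e-05). H2AJ was called at 0.56, not without MM1S control 1, at 0.43, nor under poly-A or hybridisation control scaling, at 0.42 and 0.31. CENPA was called at 0.41, but that call was lost in 6 of the 8 fits that left out 1 array, over a range of 0.33 to 0.49, and without the filter, with a pseudocount of 8 at 0.45, under poly-A scaling at 0.22 and under hybridisation control scaling at 0.0742. MACROH2A1 was called at -0.65, and H1-10 at -0.48, not without MM1S Zalypsis 2, at -0.34, nor without MM1S control 1, at -0.32, nor under poly-A scaling, at -0.70. The H2AX call was lost under poly-A scaling, at 0.69 (adjusted p = 0.144).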

How the data were processed

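RNA of 2 lines labelled as myeloma, with and without Zalypsis, was measured on HG-U133 Plus 2.0 arrays, 1 per sample. The deposited intensity values, on a linear scale, came from the authors' dChip analysis, per the series' design text; no source used here gives the dChip version or how arrays were normalized against each other. The design text names a poly-T primer and an Enzo labelling kit, while the labels' protocols name a GeneChip kit with 2 cycles of amplification.

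Probe sets were named from the platform annotation, where 41091 of 54613 carried 1 symbol, 1801 several and 11721 none. Values were taken as log2(intensity + 32), the lowest 40% by mean were left out, and 4 group means were fitted to the remaining 32768 probe sets in R 4.3.3, using the lmFit, contrasts.fit and trended eBayes functions of limma 3.58.1 with 4 residual degrees of freedom, Benjamini-Hochberg adjusted over all of them. An adjusted p under 0.05 was a call. The method was tested on simulated data. The number of arrays, 2 a group, limits the precision.

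Named members were, in each contrast, up to 8 called members each way with the largest change and groups that did not overlap, the brightest of each type, and members with opposed calls for 1 set of symbols; SLBP, NPAT, CASP8AP2 and up to 4 called genes each way of each list were named too. Other members named were chosen after their values were seen. The members and lists were chosen with earlier results of these data known. Alternatives were other pseudocounts, filters and scalings, the number as a block, other member sets, the authors' rule of over 2-fold, and leaving out each array. Promoters came from RefSeq (GRCh38.p14).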

Additional observations from a re-analysis of the deposited data

Results flagged for a closer look

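The response to Zalypsis differed between the lines, by the test of the difference itself (OPM1 response minus MM1S response, log2 scale, limma), for each of the following. Among H2A members the difference was 3.98 for 214290_s_at and 3.47 for 218280_x_at of H2AC18/H2AC19, 2.57 for H2AC6, 0.63 for H2AC17 and 0.56 for H2AC25. Among H2B members it was 3.18 for H2BC12L, 2.98 for 208490_x_at, 2.83 for 208523_x_at, 2.82 for H2BC5, 2.74 for H2BC6, 2.37 for H2BC21, 1.59 for H2BC12 and 0.97 for 215779_s_at of H2BC11 and H2BC8. The H3 probe set 206110_at had a difference of 2.69 and H3C2 of 1.83, and H1-2 had 2.55. Among H4 members it was 1.36 for H4C11 and 0.97 for 208580_x_at, while 205967_at stood at -0.98, the only one of these below 0. These items were picked for the size of their change, so their direction is a description. Of them, 206110_at and 208580_x_at passed the filter on low values only through OPM1 Zalypsis. Under poly-A scaling the calls of H3C2, H4C11 and 208580_x_at were lost at 0.64, 0.41 and 0.0724, and H2BC12, H2AC17, H2AC25 and 215779_s_at turned to -0.29, -0.30, -0.79 and -0.11. Hybridisation control scaling ended the call of 205967_at, at -0.71.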

How the results depend on the processing

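Over the 145 named results and their alternatives, 2448 of 2609 values kept direction and side of the threshold, 119 lost the call, 25 gained one and 17 turned, all 17 under poly-A control scaling. For these the cause was not tested. In OPM1 those were H4C5 at -1.10, H4C11 at -0.31, H2AC25 at -0.28, PABPN1 at -0.13, SRRT at -1.005, CPSF6 at -1.01, CSTF2 at -1.15, ASF1B at -0.81, NPM3 at -1.27, DAXX at -1.25, H2AZ2 at -1.08 and H2AJ at -0.17. In the difference between the lines they were H2BC12 at -0.29, H2AC17 at -0.30, H1-3 at -0.996, 215779_s_at at -0.11 and H2AC25 at -0.79. Poly-A scaling was made within each line and not run for the untreated comparison. In MM1S it rested on control signals near background.

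The number of members called fell where fewer were tested. With the lowest 60% left out it was 22 of 24 tested in OPM1, against 26% of all probe sets higher and 41.2% lower. In the difference it was 21 of 24, against 14.9% and 31.6%. Members of 1 symbol gave 27, 6, 21 and 8 of 35 in OPM1, MM1S, the difference and untreated cells, in that order. The shares of all probe sets called higher and lower were 22.0% and 32.1%, 12.5% and 16.9%, 11.9% and 23.2%, and 24.6% and 28.6%. With the brightest probe set per gene it was 21, 7, 18 and 8 of 25. The shares were 25.5% and 39%, 16.6% and 21.7%, 15.8% and 31.7%, and 29% and 35.8%. Without _s_at, _x_at and _a_at probe sets it was 24, 6, 16 and 9 of 34. There the shares were 21.5% and 28.9%, 13.4% and 15.8%, 11.7% and 21.5%, and 24.5% and 25.6%. Poly-A scaling gave 7 of 47 in MM1S, against 2.31% of all probe sets higher and 13% lower. The authors' rule of over 2-fold gave 37 higher and 1 lower in OPM1, where 12.2% of all probe sets were higher by it.

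The median log2 fold change in OPM1 was 1.56 with a pseudocount of 8, 0.44 with the larger one, 0.64 with no filter, 2.52 with the lowest 60% left out, 1.32 after quantile normalization, -0.0446 under poly-A scaling, 0.92 for members with 1 symbol, 1.11 for the brightest probe set per gene and 0.61 without _s_at, _x_at and _a_at probe sets. In MM1S, in the order of those settings that moved it, it was 0.27 with a pseudocount of 8, 0.0711 with the larger one, 0.11 with no filter, 0.26 with the lowest 60% left out, 0.0381 under poly-A scaling, -0.0329 under hybridisation control scaling and 0.0856 without _s_at, _x_at and _a_at probe sets. For the difference it was 1.25 with a pseudocount of 8, 0.36 with the larger one, 0.52 with no filter, 2.18 with the lowest 60% left out, 1.08 after quantile normalization, -0.19 under poly-A scaling, 0.92 under hybridisation control scaling, 0.63 for members with 1 symbol and 0.42 without _s_at, _x_at and _a_at probe sets. In untreated cells it was -0.22 under hybridisation control scaling.

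Leaving out each array in turn gave 37 to 42 calls in OPM1 with medians of 0.99 to 1.23, 8 to 12 calls in MM1S with medians of 0.13 to 0.21, 28 to 32 calls in the difference with medians of 0.75 to 0.91, and 8 to 19 calls in untreated cells with medians of -0.14 to -0.06. Where that left a group with 1 array, the lone array was assumed to vary like the other groups. With the replicate number as a replicate block within each line, 43 of 53 members were called in OPM1, 14 in MM1S, 34 in the difference and 16 in untreated cells. The shares of all probe sets called higher and lower were 24.5% and 34.1%, 16.9% and 19.7%, 15% and 26.8%, and 27.5% and 31.5%. The labels do not say that the numbers pair the samples, and same-numbered arrays deviated together with a correlation of 0.273 in OPM1 and 0.242 in MM1S.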
